A study of Mus musculus with 4 samples.

Results

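Expression of 10 genes of the splenic red pulp macrophage and of the complement system was followed in sorted regulatory T cell preparations: the complement chains C1qa, C1qb and C1qc, the heme and iron genes Hmox1 and Slc40a1, the transcription factor gene Spic, the secreted scavenger protein gene Cd5l, and the receptor genes Csf1r, Axl and Mertk. They were chosen by the gene name that the scanner files give to each probe, which found 13 of 55681 probes for 10 of 22297 genes. Each of 8 members had 1 probe, Hmox1 had a second and Csf1r had 3. Where a gene had several probes, the brightest one stood for it. Of the 10 members, 8 were well above background on all 4 arrays, Cd5l was above it on 3, and Mertk was above it on none.

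The study profiled live CD4+CD25+ cells from spleen and thymus of male deltaDC and wild-type (WT) C57BL/6 mice, in 4 groups: deltaDC spleen, WT spleen, deltaDC thymus and WT thymus. The labels do not spell out deltaDC and give no alleles or ages. In the field it is a name for mice in which dendritic cells, defined by expression of CD11c, are deleted. Cells of 3 mice were pooled for each genotype, and each group had 1 array. Splenic CD4 cells came from a negative selection kit and thymic cells from depletion with an antibody to CD8, before a sort of DAPI-negative cells on CD4 and CD25. The sort did not use Foxp3, the factor that programs regulatory T cells. All 4 arrays lay on 1 slide.

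Red pulp macrophages take up old red cells, break down their heme and return the iron to the blood. Spic is the factor that drives their development, heme oxygenase 1 (Hmox1) opens the heme ring, and ferroportin (Slc40a1) exports the iron that is freed. C1q, built of A, B and C chains, starts the classical complement pathway, coats dying cells and is made mostly by macrophages and dendritic cells. Axl and Mertk are receptors through which phagocytes bind dying cells, and Csf1r is the receptor for the growth factor on which most macrophages depend. None of the 10 is a gene that defines CD4 T cells.

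With 1 array a group there was no spread between replicates, and no p-value can be had for a comparison of 1 array with 1 array. The error given as ± is the spread between single repeated spots at that brightness, carried through the difference, which leaves out animals, sorts and labelling, and the precision of each value is limited by how few arrays there are. Levels are scaled signals, the deposited background-subtracted intensity brought to a common 75th percentile. Between 48.7% and 50.7% of spots on an array were well above background. All 14 of 14 T cell and regulatory T cell genes, Foxp3, Il2ra and Cd3e among them, were above background on every array. Of the 14, 0 differed 2-fold between genotypes in either organ. Their summed signal was 471180 in deltaDC spleen, 467324 in WT spleen, 447808 in deltaDC thymus and 416392 in WT thymus. The largest genotype difference among them was that of Il2ra, the gene of CD25, with 15521 in deltaDC spleen and 28920 in WT spleen (-0.90 ± 0.07). These values show T cell RNA in each preparation and do not show that other cells were absent. Cd163 and Siglec1, classical markers of tissue macrophages, and Vsig4, a complement receptor of macrophages, were not above background on any array. Of 28 further genes of the red pulp macrophage and of iron handling, which include Cd163 and Siglec1, most were above it. They numbered 23 in deltaDC spleen, 22 in WT spleen, 21 in deltaDC thymus and 21 in WT thymus, Adgre1 and Vcam1 among them.

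The levels of C1qa and C1qb rest on 1 short probe each, and Hmox1 was read by a second probe with the same order of organs as its first. These 3 probes lie in the protein-coding part of their transcripts and are shown because the results below turn on them. Coordinates are those of the array design on mm9, and the letters are as deposited.
C1qa probe, chr4:136452409-136452468: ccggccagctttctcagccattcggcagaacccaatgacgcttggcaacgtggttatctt
C1qb probe, chr4:136436578-136436637: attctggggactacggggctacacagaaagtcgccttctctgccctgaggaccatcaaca
Second Hmox1 probe, chr8:77620797-77620856: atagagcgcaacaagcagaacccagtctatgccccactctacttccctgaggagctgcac

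The macrophage factor PU.1 and its relative SpiC bind a short purine-rich core, GAGGAA, so the 250 bases before the start that the RefSeq table gives for each gene were searched for it on both strands. For C1qc that start lies within the gene's outer bounds in the same annotation. Of the 10 members, 6 had a promoter in the RefSeq table (GRCm38.p6), and 4 of the 6, Cd5l, C1qb, C1qc and Axl, held the core once, while Spic and Mertk did not. It is present in 23.3% of 32851 mouse promoters of the same length, so a match is a description of these letters and not a binding site. The 3 promoters below belong to genes at least 2-fold higher in deltaDC spleen than in WT spleen. Capitals mark the core, read as TTCCTC where it lies on the other strand.
Cd5l promoter, chr3:87357631-87357880, plus strand: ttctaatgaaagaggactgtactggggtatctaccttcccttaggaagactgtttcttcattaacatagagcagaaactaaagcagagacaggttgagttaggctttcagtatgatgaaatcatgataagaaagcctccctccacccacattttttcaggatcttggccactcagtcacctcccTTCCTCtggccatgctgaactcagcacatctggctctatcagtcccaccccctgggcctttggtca
C1qb promoter, chr4:136886201-136886450, minus strand: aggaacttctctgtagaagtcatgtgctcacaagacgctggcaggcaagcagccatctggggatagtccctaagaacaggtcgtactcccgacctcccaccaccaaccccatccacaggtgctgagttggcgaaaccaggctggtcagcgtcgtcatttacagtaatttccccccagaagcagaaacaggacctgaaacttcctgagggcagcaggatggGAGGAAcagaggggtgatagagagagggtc
C1qc promoter, chr4:136892915-136893164, minus strand: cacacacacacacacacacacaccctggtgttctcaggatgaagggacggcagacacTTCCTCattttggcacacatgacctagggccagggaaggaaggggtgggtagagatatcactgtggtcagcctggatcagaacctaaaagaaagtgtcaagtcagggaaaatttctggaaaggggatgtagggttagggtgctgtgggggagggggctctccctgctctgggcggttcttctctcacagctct
The antioxidant response core TGACNNNGC, through which heme and oxidants act on Hmox1 and related genes, was found on either strand in the C1qb promoter alone of the 6, and is present in 10.2% of all promoters.

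The 3 C1q chains were all highest in deltaDC spleen, and each was more than 2-fold higher there than in WT spleen. They are neighbours on chromosome 4 (GRCm38), with C1qb at chr4:136880126-136886200, C1qc at chr4:136889801-136892936 and C1qa at chr4:136895916-136898844, and their proteins assemble in equal number. C1qa, the A chain, had a scaled signal of 268.3 in deltaDC spleen, 116.05 in WT spleen, 204.2 in deltaDC thymus and 137.0 in WT thymus. C1qb, the B chain, had 205.4 in deltaDC spleen, 87.9 in WT spleen, 157.7 in deltaDC thymus and 147.2 in WT thymus. C1qc, the C chain, had 336.9 in deltaDC spleen, 160.7 in WT spleen, 197.3 in deltaDC thymus and 158.3 in WT thymus. For C1qa and C1qb the WT spleen array was the lowest of the 4, and for C1qc it stood level with WT thymus.

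In spleen, deltaDC minus WT came to 1.21 ± 0.15 for C1qa, 1.23 ± 0.17 for C1qb and 1.07 ± 0.13 for C1qc on the log2 scale, or 2.31-fold, 2.34-fold and 2.10-fold. In thymus the same difference was 0.58 ± 0.14 for C1qa, 0.10 ± 0.15 for C1qb and 0.32 ± 0.14 for C1qc. All 3 chains therefore lay above WT by several times the spot error in spleen, and in thymus C1qb did not exceed it. Between organs no chain differed 2-fold: WT thymus minus WT spleen was 0.24 ± 0.16 for C1qa, 0.74 ± 0.17 for C1qb and -0.02 ± 0.15 for C1qc, and deltaDC thymus minus deltaDC spleen was -0.39 ± 0.13, -0.38 ± 0.14 and -0.77 ± 0.13 in the same order. Under a background correction that models the background and adds an offset (normexp), which shrinks dim probes, the spleen differences were 0.83 for C1qa, 0.75 for C1qb and 0.79 for C1qc, all under 2-fold.

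C1qc is the best measured member, because its probe is spotted 10 times on each array, which lowers the spot error of its mean difference to 0.04 in spleen and in thymus. The 9 deltaDC spleen spots that carried no outlier flag ran between 317 and 354, against 141 and 182 for the 10 WT spleen spots, with no overlap. The deltaDC thymus spots ran between 181 and 215 and the WT thymus spots between 152 and 170.5, again with no overlap. The WT spleen spots overlapped the spots of both thymus arrays. Spots share an RNA pool and a labelling, so their agreement speaks for the reading of an array and not for the mice. How many of the 399 probes spotted 10 times separate in the same way was not counted. The lack of overlap is therefore not shown to be particular to C1qc.

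**Figure D1:**
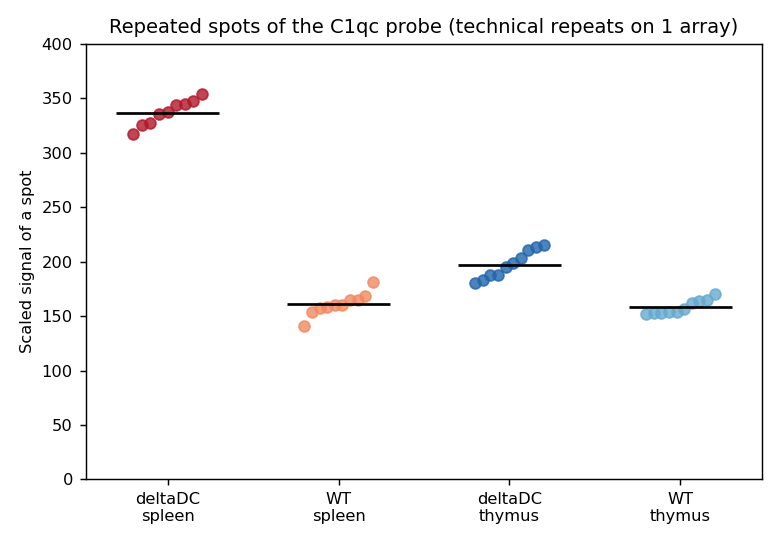
Scaled signal of the repeated spots of the C1qc probe on each of the 4 arrays (vertical axis from 0, linear), 1 point a spot. The 9 deltaDC spleen spots (317 to 354) lie above the 10 WT spleen spots (141 to 182), and the thymus arrays lie closer together.

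Hmox1, Slc40a1 and Spic, the genes of heme breakdown, iron export and red pulp macrophage development, differed by more between organs than between genotypes. Hmox1 had a scaled signal of 1326 in deltaDC spleen, 913 in WT spleen, 153 in deltaDC thymus and 169.8 in WT thymus. Slc40a1 had 165 in deltaDC spleen, 154 in WT spleen, 33.6 in deltaDC thymus and 29.7 in WT thymus. Spic had 172 in deltaDC spleen, 116 in WT spleen, 48.2 in deltaDC thymus and 37.2 in WT thymus. For each of the 3, both thymus arrays were below both spleen arrays. Thymus minus spleen in WT was -2.43 ± 0.12 for Hmox1 (5.38-fold lower), -2.38 ± 0.24 for Slc40a1 (5.19-fold lower) and -1.64 ± 0.23 for Spic (3.11-fold lower). In deltaDC it was -3.12 ± 0.12 for Hmox1 (8.67-fold lower), -2.30 ± 0.23 for Slc40a1 (4.91-fold lower) and -1.83 ± 0.21 for Spic (3.56-fold lower). The second Hmox1 probe, whose sequence is given above, showed the same order with smaller differences, -1.09 ± 0.22 in WT and -2.24 ± 0.22 in deltaDC. It had 175 in deltaDC spleen, 103 in WT spleen, 37.0 in deltaDC thymus and 48.5 in WT thymus.

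Between genotypes these genes differed by less than 2-fold. In spleen, deltaDC minus WT was 0.54 ± 0.09 for Hmox1, 0.57 ± 0.16 for Spic and 0.10 ± 0.15 for Slc40a1, the last within its spot error. In thymus it was -0.15 ± 0.14 for Hmox1, 0.37 ± 0.27 for Spic and 0.18 ± 0.30 for Slc40a1. In the order of levels, the deltaDC and WT arrays of thymus for all 3 genes, and those of spleen for Slc40a1, stood about as close together as the spot error. Because each sample is a pool of sorted cells, fewer cells of a type and less RNA per cell cannot be told apart.

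Cd5l, which encodes a secreted protein that macrophages make and that binds lipids and microbes, had the widest range of any member above background. It had a scaled signal of 735 in deltaDC spleen, 239 in WT spleen, 37.3 in deltaDC thymus and 8.14 in WT thymus, where it was not well above background. In spleen it was 3.08-fold higher in deltaDC than in WT (1.62 ± 0.12), the largest genotype difference of a member measured on both arrays. In thymus it was at least 2.38-fold higher in deltaDC than in WT, set against the lowest signal still well above background in WT thymus. Thymus was below spleen in both genotypes, by 19.7-fold in deltaDC (-4.30 ± 0.21) and by at least 15.2-fold in WT. Cd5l thus had the organ order of Hmox1, Slc40a1 and Spic together with a spleen genotype difference above that of the C1q chains.

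Csf1r, the receptor for CSF1 and IL-34, had a scaled signal of 1502 in deltaDC spleen, 945 in WT spleen, 732 in deltaDC thymus and 555 in WT thymus on its brightest probe. deltaDC was 1.59-fold higher than WT in spleen (0.67 ± 0.09) and 1.32-fold higher in thymus (0.40 ± 0.10), and thymus was below spleen by -1.04 ± 0.09 in deltaDC and -0.77 ± 0.10 in WT. The probes of Csf1r did not all read alike. A second probe gave 0.61 ± 0.14 in spleen and 0.03 ± 0.15 in thymus, and the third gave -0.08 ± 0.16 and -0.12 ± 0.19, within the spot error in both organs. A genotype difference of Csf1r thus depends on the probe, while thymus was lower than spleen on all 3 probes in both genotypes.

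Axl differed from the other members in its order. It had a scaled signal of 1082 in deltaDC spleen, 628 in WT spleen, 854 in deltaDC thymus and 1133 in WT thymus, so that the 2 highest arrays, deltaDC spleen and WT thymus, stood within the spot error of each other. deltaDC minus WT was 0.78 ± 0.10 in spleen (1.72-fold higher) and -0.41 ± 0.10 in thymus (1.33-fold lower). Thymus minus spleen was 0.85 ± 0.10 in WT and -0.34 ± 0.10 in deltaDC. Mertk, its close relative, had 14.1 in deltaDC spleen, 13.1 in WT spleen, 11.8 in deltaDC thymus and 3.22 in WT thymus, none of them well above background, and no fold is given.

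**Figure D2:**
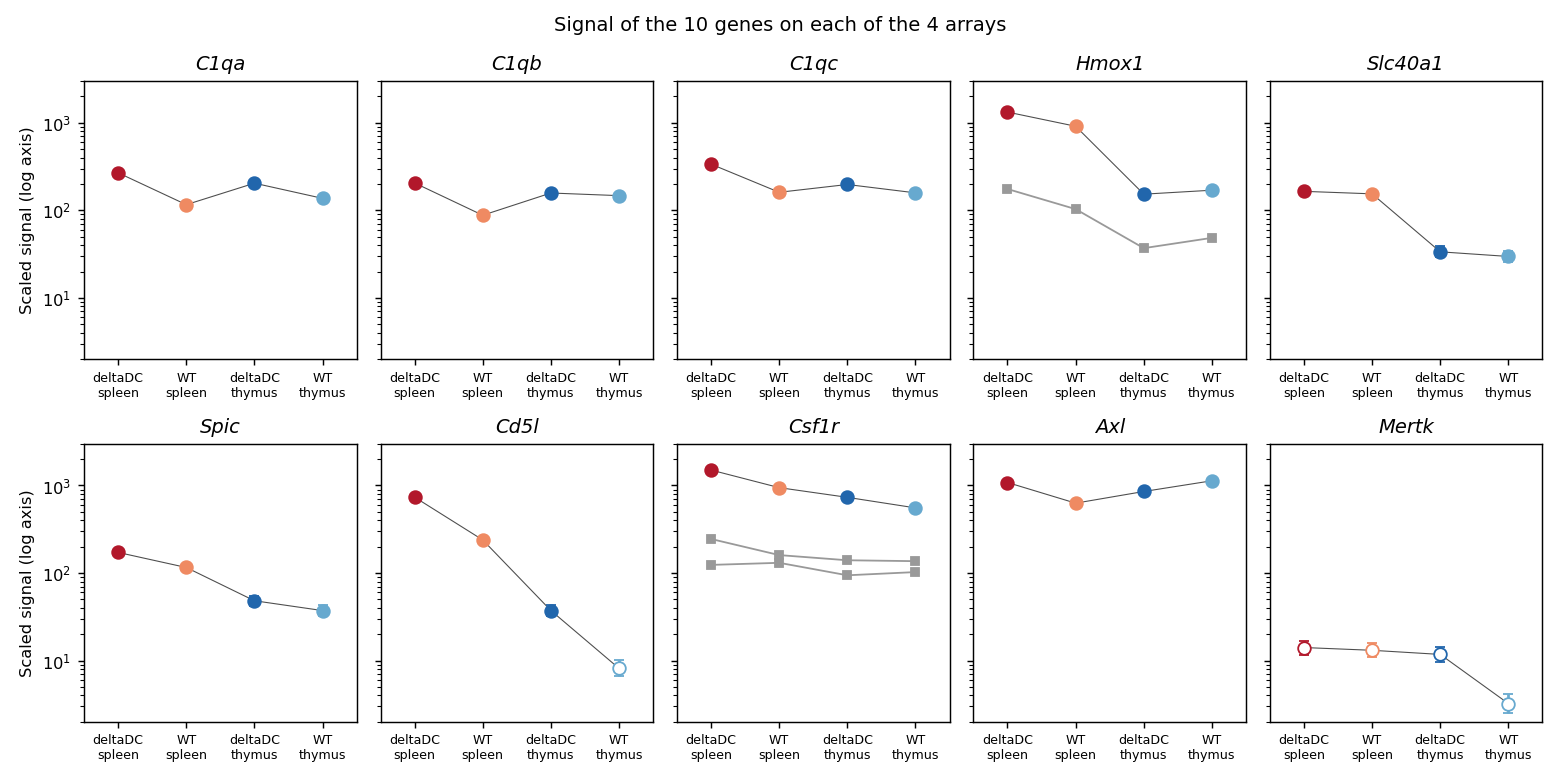
Scaled signal (log axis) of the 10 members on the deltaDC spleen, WT spleen, deltaDC thymus and WT thymus arrays, 1 panel a gene. Filled points are well above background, open points are not, and grey squares are further probes of Hmox1 and Csf1r. Hmox1, Slc40a1, Spic and Cd5l are lower on both thymus arrays, and Cd5l has 735 in deltaDC spleen against 239 in WT spleen.

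Counted together, 9 members were measured in spleen in both genotypes, and 4 of them, Cd5l, C1qa, C1qb and C1qc, were at least 2-fold higher in deltaDC, with 0 lower. Over all 12529 genes measured there, 8.42% differed at least 2-fold, 6.42% higher and 2.0% lower in deltaDC spleen. The median difference of the 9 was 0.78, against -0.0047 over all genes. In thymus 0 of 8 members measured differed 2-fold, and Cd5l was higher by its bound, while 1.6% of 13039 genes differed 2-fold, 0.928% higher and 0.667% lower in deltaDC. The median there was 0.25 for members and 0.05 for all genes. These counts describe genes that were picked with earlier results of these arrays known and carry no test.

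**Figure D3:**
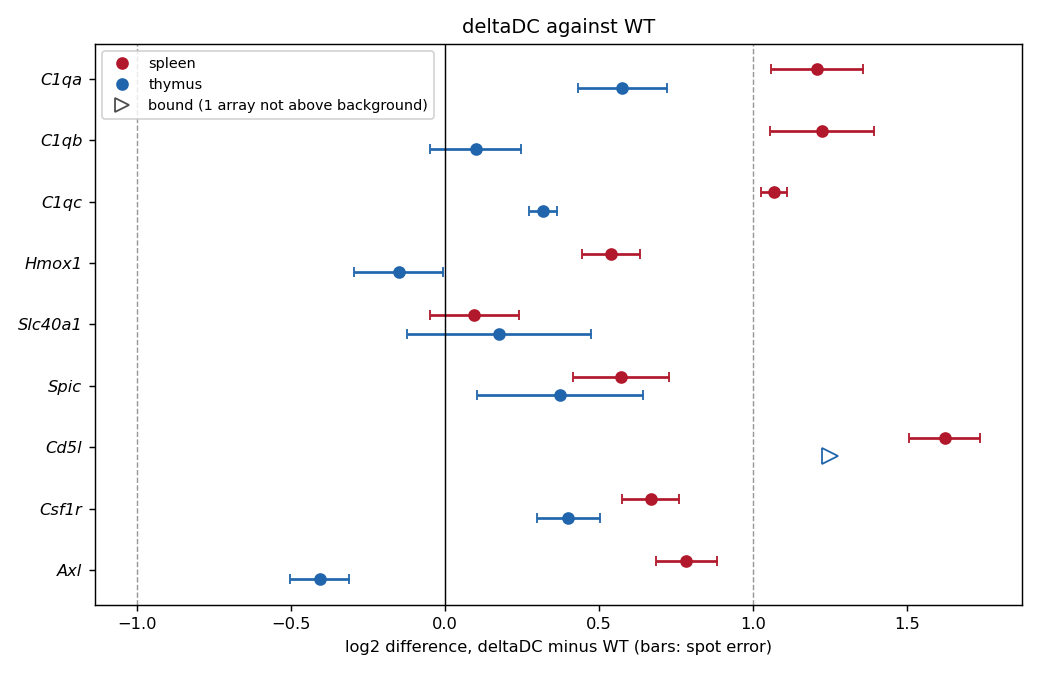
Difference between deltaDC and WT (log2 scale, error bars are the spread of repeated spots, for C1qc that of their mean) for each member in spleen and in thymus, and a triangle where only a bound could be given. The 3 C1q chains lie between 1.07 and 1.23 in spleen and between 0.10 and 0.58 in thymus, and Axl is 0.78 in spleen and -0.41 in thymus.

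Between organs, 3 of 8 members measured in WT, Hmox1, Slc40a1 and Spic, were at least 2-fold lower in thymus than in spleen, and Cd5l was lower by its bound. Over all 12482 genes measured in WT, 9.57% differed at least 2-fold, 3.03% lower and 6.54% higher in thymus. In deltaDC, 5 of 9 members were at least 2-fold lower in thymus, namely those 4 and Csf1r, against 11.5% of 12803 genes that differed, 6.15% lower and 5.37% higher. The Csf1r call lies at the threshold and was lost with normexp (-0.95), with no scaling (-0.94), with the median over its probes (-0.81) and in the authors' deposited matrix (-0.97). With normexp, thymus minus spleen in WT was -0.91 for Spic, under 2-fold, and -1.29 for Slc40a1, and 2 members were called there. The members' median was -0.40 in WT and -1.04 in deltaDC, against -0.08 and -0.02 over all genes. Spleen exceeded thymus by at least 2-fold in both genotypes for 3 of the 8 members that were above background throughout, and for 1.36% of 12286 genes. As many as 7 of the 8, all but Axl, were highest on deltaDC spleen, the place of 29.0% of genes, and 3, C1qa, C1qb and Axl, were lowest on WT spleen, the place of 24.7%. For Slc40a1 the gap between deltaDC spleen and WT spleen, 0.095, was within its spot error of 0.145.

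**Figure D4:**
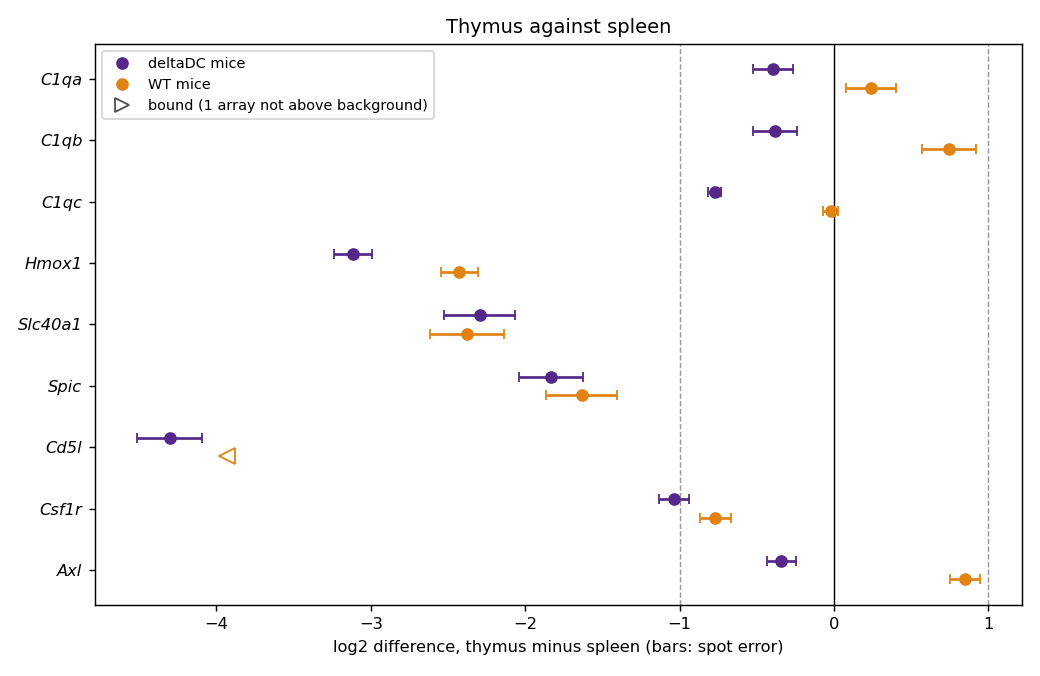
Difference between thymus and spleen (log2 scale, error bars are the spread of repeated spots, for C1qc that of their mean) for each member in deltaDC and in WT mice, and a triangle for a bound. Hmox1, Slc40a1, Spic and Cd5l are below -1 in both genotypes, while Axl is -0.34 in deltaDC and 0.85 in WT.

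The only test that 4 single arrays allow is an additive fit of genotype and organ with limma over 13491 genes above background on at least 2 arrays, which leaves 1 residual degree of freedom and takes the genotype effect as equal in both organs. No gene passed an adjusted p of 0.05 for genotype in limma's fit (0 of 13491, 0.0%), although 589 had an unadjusted p under 0.05, and 0 passed with a trended, robust prior. Among members the lowest limma adjusted p for genotype was 0.806. The estimates of deltaDC minus WT were 1.91 for Cd5l (SE 0.22, 95% interval 1.20 to 2.62, unadjusted p = 0.00383 in limma's fit), 0.89 for C1qa (SE 0.23), 0.53 for Csf1r (SE 0.16), 0.47 for Spic (SE 0.15), 0.69 for C1qc (SE 0.26), 0.66 for C1qb (SE 0.36), 0.19 for Hmox1 (SE 0.25), 0.14 for Slc40a1 (SE 0.14) and 0.19 for Axl (SE 0.38). The Cd5l estimate uses the WT thymus value that was not above background, and with normexp it was 0.93 (95% interval 0.24 to 1.62). The spleen and thymus arrays of a genotype may come from the same pooled mice. These SEs and intervals therefore do not measure the spread between pools of mice.

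For organ, 64 of 13491 genes (0.474%) passed an adjusted p of 0.05 in the same limma fit and 0 of the 9 members did. Thymus minus spleen was -4.59 for Cd5l (SE 0.22, limma adjusted p = 0.0563), -2.34 for Slc40a1 (SE 0.14, adjusted p = 0.0628), -1.73 for Spic (SE 0.15, adjusted p = 0.0827) and -2.77 for Hmox1 (SE 0.25, adjusted p = 0.0877). Those 4 did not pass the threshold, and the lowest adjusted p of any gene was 0.0467. Csf1r was at -0.90 (SE 0.16, adjusted p = 0.162), and C1qa, C1qb, C1qc and Axl had adjusted p-values between 0.459 and 0.863 in that limma fit. With a trended, robust prior Cd5l (limma adjusted p = 0.0316) and Hmox1 (0.0436) passed, and with normexp Cd5l (0.0444), Hmox1 (0.0398) and Slc40a1 (0.0474) did. The normexp estimates were smaller, at -2.61 for Cd5l, -1.26 for Slc40a1 and -1.01 for Spic.

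The genotype difference could be set side by side between organs for 8 members, as a value with no test, because an interaction term would use the last degree of freedom. Spleen minus thymus of the deltaDC minus WT difference was 1.19 for Axl, 1.13 for C1qb, 0.75 for C1qc, 0.69 for Hmox1, 0.63 for C1qa, 0.27 for Csf1r, 0.20 for Spic and -0.08 for Slc40a1. The spot error of these values was 0.14 for Axl, 0.22 for C1qb, 0.19 for C1qc, 0.17 for Hmox1, 0.21 for C1qa, 0.14 for Csf1r, 0.31 for Spic and 0.33 for Slc40a1. Axl was higher in deltaDC than in WT in spleen and lower in thymus. Hmox1 was higher in deltaDC in spleen, while in thymus it was lower only by about its spot error. C1qa and C1qc were higher in deltaDC in both organs, and C1qb was higher in spleen and level in thymus.

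Genes of most similar pattern were sought among the 12286 genes above background on all 4 arrays, by the distance between log2 values centred over the 4 arrays. With 4 points many genes lie close to any one gene, and only the likeness is described. Nearest to C1qa were Rnf224 (distance 0.03) and Trf (0.04), the gene of the iron carrier transferrin, which had 2115 in deltaDC spleen, 906 in WT spleen, 1646 in deltaDC thymus and 1070 in WT thymus. After them came Oas1a (0.16), an interferon-induced sensor of double-stranded RNA. Nearest to C1qb were Trip10, Rln3 and Tspyl4 at 0.04 to 0.07, and nearest to C1qc were Hip1r, Mmp23 and A930007A09Rik, each at 0.07. Hmox1 had Ly6c1 (0.45), Ppm1j (0.45) and Gm4841 (0.52) nearest, Slc40a1 had Gm4841 (0.15), Fhdc1 (0.20) and Art2b (0.24), and Spic had Icam4 (0.21), Xdh (0.23) and Gimap7 (0.27). Axl had Kcnk5 (0.09), Enpp2 (0.09) and Plk4 (0.13), and Csf1r had Rundc3b (0.12), Srgn (0.13) and Ap5b1 (0.16). Among the members, Slc40a1 ranked 5 of 12285 in nearness to Hmox1 and Spic ranked 43, while from Slc40a1 outward Hmox1 ranked 17 and Spic 28.

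Other genes of the red pulp macrophage and of iron handling moved unevenly. Of 28 on the array, 22 were measured in spleen in both genotypes, and deltaDC was at least 2-fold higher for 7, with 0 lower and 1 higher by a bound. Their median difference was 0.66. In thymus 1 of 21 was 2-fold higher, and the median was 0.13. The largest in spleen were the chemokine receptor gene Ccr3 (2.34, with 468 in deltaDC and 92.3 in WT), the lipid-sensing nuclear receptor gene Pparg (1.82), the phagosomal metal transporter gene Slc11a1 (1.80) and the integrin gene Itgad (1.55). Hp, which encodes the hemoglobin-binding haptoglobin, was at least 24.1-fold higher by its bound. The ferritin genes Fth1 and Ftl1, which store iron, were level, at 0.11 and -0.14. Between organs, 6 of 21 list genes measured in deltaDC were 2-fold lower in thymus and 1 higher, against 6.15% and 5.37% of all genes. In WT 0 of 20 were lower and 2 higher, against 3.03% and 6.54%, and 2 more were lower by a bound in each genotype. Fcna, a ficolin gene of macrophages, was lower in thymus by a bound in both genotypes, at least 11.6-fold in deltaDC and 5.92-fold in WT.

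The markers that define macrophages did not share 1 pattern. Adgre1, the gene of F4/80, had 179.9 in deltaDC spleen, 74.6 in WT spleen, 61.2 in deltaDC thymus and 49.3 in WT thymus, highest in deltaDC spleen, with a difference of 1.27 there. Vcam1, an adhesion molecule of red pulp macrophages, had 639 in deltaDC spleen, 387 in WT spleen, 262 in deltaDC thymus and 277 in WT thymus. Lyz2, the gene of lysozyme, had 209.5 in deltaDC spleen and 17.7, not well above background, in WT spleen, and 393 in deltaDC thymus against 176 in WT thymus. These 3 were higher in deltaDC spleen. Cd68 had 323 in deltaDC spleen and 325 in WT spleen, the integrin gene Itgam had 3079 in deltaDC spleen and 3245 in WT spleen, and Cd14 had 25.7 in deltaDC spleen and 35.8 in WT spleen. Cd68 and Itgam were thus level, and Cd14, dim on both arrays, was lower in deltaDC by -0.48 ± 0.30. Further macrophage genes of the lists, picked after their values were seen, went both ways. In deltaDC minus WT spleen on the log2 scale, Ms4a7 (1.22), Mrc1 (0.96) and Mpeg1 (0.94) were higher. Treml4 (-0.09) was level, Marco (-0.57 ± 0.17) was lower, and Cybb (-0.26 ± 0.19) was lower by little more than its spot error. Trem2, Msr1 and Timd4 were not above background on either spleen array. Fcgr1 and Spi1, the genes of an antibody receptor and of PU.1, were not above background on either spleen array. In thymus Fcgr1 had 50.2 in deltaDC against 21.3 in WT, and Spi1 had 36.5 in deltaDC against 29.1 in WT.

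The other complement genes did not all shift alike. Of 30, 13 were measured in both spleen samples, and 2 were at least 2-fold higher in deltaDC and 1 lower, and Cd59a, an inhibitor of the membrane attack complex, was at least 2.96-fold lower by a bound. Cd93, once described as a C1q receptor, was highest in its difference (3.86), C2, which encodes a protease of the classical pathway, followed (1.27), and Cd55, an inhibitor of the convertases, was lower (-1.02). The median of the 13 was 0.09. In thymus 1 of 17 measured was 2-fold higher, the C1 inhibitor gene Serping1 (1.04), and C1s1 and Cfi were higher by bounds of 2.04-fold and 2.48-fold. Over all genes, 0.928% were at least 2-fold higher in deltaDC thymus. C2 (0.85), C3 (0.83) and C4b (0.60) were higher there by less than 2-fold, and the median of the 17 was 0.23. The receptors C3ar1 and C5ar1 were not above background on any array.

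Of 27 genes of dead cell clearance, 20 were measured in both spleen samples, and 3 were at least 2-fold higher in deltaDC and 2 lower, with a median of 0.14. The shares over all genes were 6.42% higher and 2.0% lower. Itgb5 (3.33), an integrin that binds dying cells through a bridge, Stab1 (2.52) and Stab2 (1.08), scavenger receptors, were higher, and Cd300lf (-1.82) and Cd300a (-1.03), lipid-binding receptors, were lower. Gas6, the ligand of Axl, had 36.1 in deltaDC spleen, 19.5 in WT spleen, 370.3 in deltaDC thymus and 161 in WT thymus, and it was 2-fold higher in deltaDC than in WT in thymus (1.20) and higher in thymus than in spleen in both genotypes, by 3.36 in deltaDC and 3.05 in WT. Tyro3, the remaining receptor of the Axl family, differed by 0.53 in spleen and 0.18 in thymus, and Pros1, a second ligand, by -0.88 in spleen and -0.65 in thymus.

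Of 36 genes of the CSF1 receptor axis and of myeloid cells, 24 were measured in both spleen samples, 7 were at least 2-fold higher in deltaDC, 1 was lower and 7 more were higher by a bound. Among all genes measured on both spleen arrays, 6.42% were higher and 2.0% lower. Cx3cr1 (4.17) and Ccr2 (3.72), chemokine receptor genes, led, and the adaptor genes Tyrobp (2.26) and Fcer1g (2.15) followed, while Tlr7 was lower (-1.11). In thymus 2 of 30 were 2-fold higher, Fcgr1 (1.24) and Lyz2 (1.16), against 0.928% of all genes. Csf1, the gene of the ligand of Csf1r, was lower in thymus than in spleen in both genotypes, by -2.40 in deltaDC and -1.70 in WT. The heme and oxidant response list had 15 of 17 genes measured in spleen, with 3 at least 2-fold higher, Srxn1 (3.22), Mt1 (2.40) and Mt2 (1.30), and 2 lower, Hspa1a (-1.49) and Osgin1 (-1.01). Hmox2, the second heme oxygenase, differed by 0.04 in spleen and 0.09 in thymus.

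**Figure D5:**
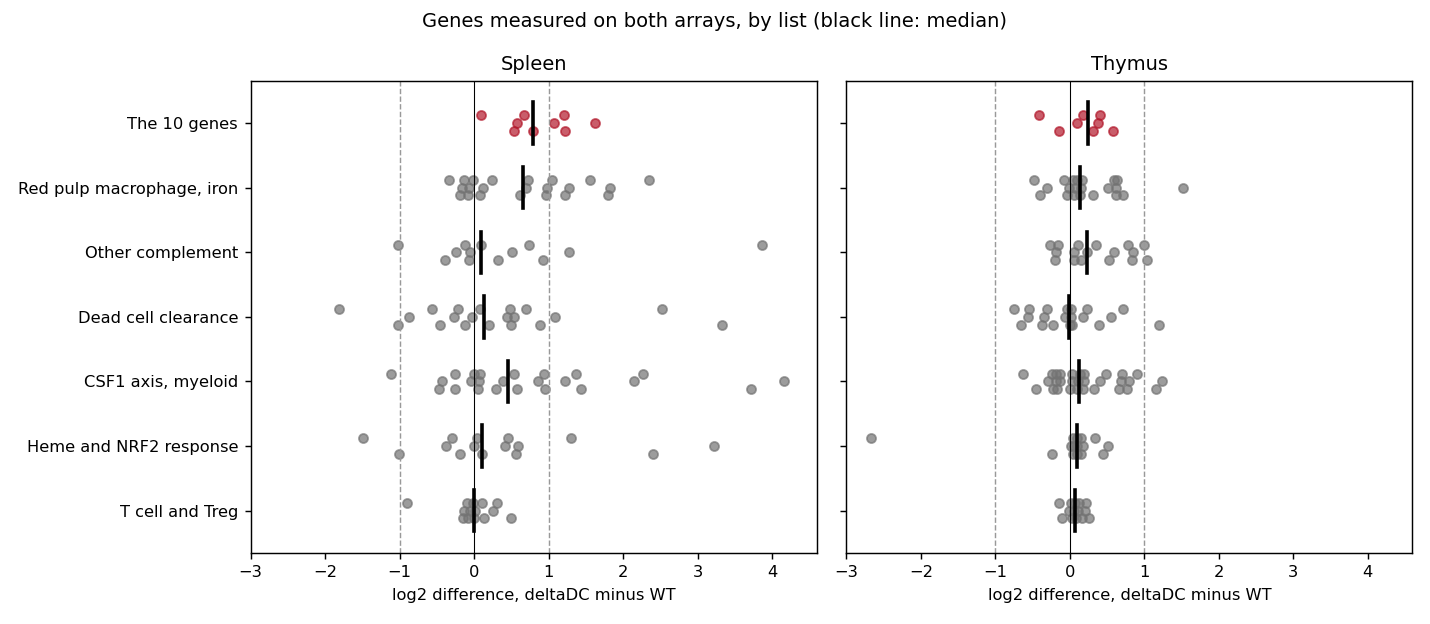
Difference between deltaDC and WT (log2 scale) of the genes in each list that were measured on both arrays, in spleen and in thymus, 1 point a gene with the list's median marked. T cell genes centre on 0 in both organs, and the red pulp and iron list has a median of 0.66 in spleen and 0.13 in thymus.

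Markers of some other cells differed between the spleen arrays as well. Of 11 neutrophil genes, 10 were above background in deltaDC spleen against 3 in WT spleen, and all 7 bounds were higher in deltaDC, S100a8 having 1486 in deltaDC and 4.14 in WT. The summed signal of the neutrophil list, most of it Csf3r, went the other way, with 49724 in deltaDC spleen, 53834 in WT spleen, 39813 in deltaDC thymus and 44482 in WT thymus. Csf3r alone had 39678 in deltaDC spleen and 53650 in WT spleen. Of the other neutrophil genes measured on both spleen arrays, Camp was higher in deltaDC (4.66) and Elane was level (-0.01). Of 9 NK cell genes, 9 were above background in deltaDC spleen and 6 in WT spleen, and their summed signal was 30822 in deltaDC spleen, 4101 in WT spleen, 15959 in deltaDC thymus and 13388 in WT thymus. The summed signal of 9 erythroid genes was 4181 in deltaDC spleen, 1593 in WT spleen, 12294 in deltaDC thymus and 3200 in WT thymus, most of it Hba-a1. Conventional dendritic cell genes were above background for 8 of 12 in deltaDC spleen and 4 in WT spleen. In thymus it was 8 in deltaDC and 9 in WT. Their summed signal was 21919 in deltaDC spleen, 35933 in WT spleen, 52043 in deltaDC thymus and 39587 in WT thymus. Most of that sum was Ccr7, with 18504 in deltaDC spleen, 33565 in WT spleen, 48947 in deltaDC thymus and 35865 in WT thymus. Other genes of this list went both ways in spleen. Batf3 (2.20) and Itgae (1.91) were higher in deltaDC and Cd86 (-1.56) was lower. Itgax, the gene of CD11c, and Zbtb46 were higher in deltaDC by bounds of 5.43-fold and 5.25-fold. B cell genes summed to 2171 in deltaDC spleen and 2229 in WT spleen, and to 7327 in deltaDC thymus and 3617 in WT thymus. So in spleen the summed NK and erythroid signals were higher in deltaDC than in WT. The numbers of neutrophil and conventional dendritic cell genes above background were higher in deltaDC spleen too. The summed neutrophil and conventional dendritic cell signals were lower there, but each sum followed a single gene, Csf3r or Ccr7, and does not describe the rest of its list. The summed B cell signal was lower by little. The C1q chains, Cd5l and Adgre1 were highest in deltaDC spleen, while the erythroid sum was highest in deltaDC thymus. The part of other cells in the members' differences was not tested.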

How the data were processed

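RNA (10 ng, integrity number 8.4 to 9.9) from cells of 3 pooled mice per genotype was labelled with Cy3 and hybridised to 1-colour arrays, per the labels. The scanner output that the authors deposited gives fluorescence intensity, per the file headers from Agilent Feature Extraction 10.7.3.1, background-subtracted and detrended but not scaled between arrays, and other columns hold flags. The authors also deposited a matrix of log2 values, quantile-normalized per its header, with column medians of 4.11 (deltaDC spleen), 4.10 (WT spleen), 4.10 (deltaDC thymus) and 4.15 (WT thymus). Each column correlated best with the scanner array of its own label. Its offset is unknown, and it served as an alternative.

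Control spots and outlier-flagged spots (110 to 168 an array) were removed, and 0 spots were saturated. The log2 intensity minus the array's 75th percentile (391 in deltaDC spleen, 340.2 in WT spleen, 418 in deltaDC thymus, 407 in WT thymus) was averaged over spots, and the brightest probe of a gene was kept. A bound sets the bright signal against the higher of the dim probe's own signal and the array's lowest well-above-background signal (9.27 to 17.3). Where the dim probe's own signal is the higher, the bound is a plain ratio. The spread of repeated spots was 0.35 (SD, log2) for the dimmest and 0.049 for the brightest spots. The fit used limma 3.58.1 (R 4.3.3; lmFit, eBayes, Benjamini-Hochberg, two-sided), and the code was tested on simulated data. Named genes are all members, up to 4 genes at least 2-fold different per list and comparison, 8 macrophage markers and the 3 genes nearest to each member. Fth1, Ftl1, Tyro3, Pros1, Hmox2, Cd300a, Tlr7, Csf3r, Ccr7, Batf3, Itgae, Cd86, Itgax, Zbtb46, Ms4a7, Mrc1, Mpeg1, Treml4, Cybb, Marco and the genes given only as above or not above background were added after their values were seen. So were C3, C4b, Elane and the values of Il2ra. Members and lists were chosen with earlier results of these data known. Alternatives covered background correction, scaling, the dim-probe filter, the choice of probe, outlier spots, the deposited matrix and the variance prior.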

Additional observations from a re-analysis of the deposited data

Results flagged for a closer look

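For 2 members the genotype difference had opposite signs in spleen and thymus, each on 1 array a group. Axl was higher in deltaDC than in WT in spleen (0.78 ± 0.10) and lower in thymus (-0.41 ± 0.10), so that the genotype difference in spleen minus that in thymus was 1.19. Hmox1 was higher in deltaDC in spleen (0.54 ± 0.09) and lower in thymus (-0.15 ± 0.14, about its spot error), which gave 0.69. The difference between organs was not tested for either gene, because 4 arrays leave no degree of freedom for it.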

How the results depend on the processing

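No direction of a called value was reversed under any alternative. Of 34 member differences, those that moved beyond the spot error numbered 17 with normexp, 17 with no scaling between arrays, 6 with the median over probes, 3 with the deposited matrix and 0 with quantile scaling, with outlier spots kept and with no filter on dim genes (0 of 32 with genes above background on all 4 arrays). Leaving out scaling moves the median of all genes by 0.20 in the spleen genotype comparison and by 0.26 between the WT organs. With normexp, the members at least 2-fold different between genotypes in spleen numbered 1 (Cd5l) against 4, all genes numbered 568 against 1055 in spleen, 56 against 208 in thymus, 707 against 1194 between WT organs and 948 against 1476 between deltaDC organs, and the members whose genotype difference differed by 1 or more between organs numbered 1 against 2. With no filter on dim genes, 2 members differed 2-fold between genotypes in thymus against 0, 5 between WT organs against 3, and all genes numbered 3096 in spleen, 1655 in thymus, 3309 between WT organs and 3562 between deltaDC organs. With no scaling, 5 members differed between WT organs. Between deltaDC organs 4 members differed, against 5, with normexp, no scaling, the median over probes, the deposited matrix and the filter on all 4 arrays, and between WT organs 2 did with normexp. With genes above background on all 4 arrays, 136 genes differed in thymus. In limma's fit for organ, 2 members passed with a trended, robust prior and 3 with normexp, against 0. All genes passing for organ, 64 as reported, numbered 155 with that prior, 213 with normexp, 24 with outlier spots kept, and 0 with quantile scaling, no scaling, the median over probes, the deposited matrix, the filter on all 4 arrays and no filter. The cause of these changes was not tested, except that filters change which genes are tested. No analysis paired by mouse was possible because each group has 1 array, and for the same reason no replicate could be left out. Signals near background limit Cd5l in thymus, Slc40a1 and Spic in thymus, and Mertk throughout.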

Other observations

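Of the stress, clearance and complement genes measured on both arrays, some differed 2-fold between organs, though most did not. Over all genes, 11.5% of 12803 differed at least 2-fold between organs in deltaDC and 9.57% of 12482 in WT. Thymus and spleen were within 2-fold for 11 of 15 heme and oxidant response genes in deltaDC and 11 of 15 in WT, for 14 of 19 dead cell clearance genes in deltaDC and 13 of 20 in WT, and for 11 of 14 complement genes in deltaDC and 9 of 14 in WT. These counts leave out bounds. In deltaDC, 6 more complement genes were at least 2-fold higher in thymus by a bound. Among clearance genes in deltaDC, 2 more were higher in thymus and 1 lower by a bound. Hspa1a, an inducible heat shock protein gene, was higher in thymus than in spleen by 4.61 in deltaDC and by 5.79 in WT on the log2 scale, and it was lower in deltaDC than in WT in both organs, by -1.49 in spleen and -2.66 in thymus. Osgin1, an oxidant response gene, was lower in thymus by -1.64 in deltaDC and -2.80 in WT. Tgm2, a transglutaminase gene used in clearing dying cells, was lower in thymus by -2.11 in deltaDC and -2.01 in WT. C5ar2, a second receptor for the complement fragment C5a, was higher in thymus by 1.82 in deltaDC and 2.33 in WT, and Cd55, an inhibitor of the complement convertases, was lower by -1.23 in deltaDC and -2.08 in WT. Each value is a difference of 1 array from 1 array, with no test.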
